A study of Mus musculus with 14 samples.

Results

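The Gimap genes encode GTPases of immunity-associated proteins, small GTP-binding proteins found mainly in lymphocytes. The 8 mouse members Gimap1, Gimap3, Gimap4, Gimap5, Gimap6, Gimap7, Gimap8 and Gimap9 were taken by symbol through the platform's annotation. Each was read by 1 probe set that carries only its symbol. They make up 8 of the 19937 gene symbols on the array and 8 of the 13641 genes that passed the filter on low values. The question was how the family differed between immature T cells of the thymus and mature CD8 T cells of the spleen, and between ENK KO and WT mice.

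RNA of sorted lymphocytes was hybridised to 14 one-colour Affymetrix arrays. Each sample title ends in a number, used here as the replicate number, and does not say that it identifies a mouse. Of the spleen CD8+ arrays, 5 were of ENK KO mice (2 of females aged 2 months and 3 of males aged 6, 7 and 9 months). The other 4 were of WT mice (3 of males and 1 of a female, all aged 7 months). Of the thymus CD4+CD8+ arrays, 2 were of ENK KO mice (a male aged 7 months and a female aged 2 months). The other 3 were of WT mice (2 of males and 1 of a female, all aged 7 months). All were C57BL/6 mice. The labels do not spell out ENK, while the series title names Engrailed-2, a homeodomain transcription factor encoded by En2. The title concerns a leukaemia, but no label gives a leukaemia transgene or disease stage to any group, and how the knockout was made is not stated there. Age and genotype are partly confounded, because no WT mouse was 2 months old. Nothing in the labels says whether mice shared litters or sorting days, or whether a thymus and a spleen array came from the same mouse. The p-values rest on the spread between arrays within groups and treat the arrays as independent. In that spread, differences between mice and technical ones cannot be told apart.

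Many GIMAP proteins sit on internal membranes of lymphocytes, and several are needed for lymphocytes to survive outside the thymus. Loss of Gimap5 in rats and mice leaves few peripheral T cells, and loss of Gimap1 in mice depletes mature T and B cells. The genes lie side by side in the genome, so that a family member's neighbours are mostly other members. T cells pass through a CD4+CD8+ double-positive stage in the thymus, where the T cell receptor is tested, before they become CD4 or CD8 single-positive cells and leave for the spleen and lymph nodes.

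In the RefSeq annotation of the mouse build GRCm38.p6 the 8 genes stood on chromosome 6 in the order Gimap8, Gimap9, Gimap4, Gimap6, Gimap7, Gimap1, Gimap5 and Gimap3, with no other annotated protein-coding gene between them. RefSeq promoter windows of 300 bases, 250 before and 50 after a start site, were matched for 8 of 8 members (9 windows, since Gimap8 has 2 start sites). The windows below belong to the pair with the widest spleen-to-thymus difference, Gimap3 and Gimap4, and to the pair with the narrowest in WT mice, Gimap1 and Gimap9. They are written 5′ to 3′ on the gene's strand, and capitals mark matches to the core motifs GGAAG (ETS), TGTGGT (RUNX), CACCC (KLF), GTAAACA (FOXO) and CAGGTG (E protein) on either strand.
Gimap3 promoter, chr6:48770802-48771101, minus strand: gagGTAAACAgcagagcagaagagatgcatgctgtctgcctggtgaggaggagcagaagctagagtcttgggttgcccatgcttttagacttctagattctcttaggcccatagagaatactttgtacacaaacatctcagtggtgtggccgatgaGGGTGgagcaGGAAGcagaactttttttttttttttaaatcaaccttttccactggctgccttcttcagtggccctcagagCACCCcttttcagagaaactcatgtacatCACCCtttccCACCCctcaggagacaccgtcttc
Gimap4 promoter, chr6:48684328-48684627, plus strand: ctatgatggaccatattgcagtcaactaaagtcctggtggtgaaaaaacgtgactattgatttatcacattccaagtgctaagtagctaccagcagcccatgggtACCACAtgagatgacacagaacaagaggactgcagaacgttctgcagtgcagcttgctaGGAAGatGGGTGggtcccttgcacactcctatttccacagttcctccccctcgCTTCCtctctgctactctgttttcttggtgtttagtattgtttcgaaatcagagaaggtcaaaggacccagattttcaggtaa
Gimap1 promoter, chr6:48738797-48739096, plus strand: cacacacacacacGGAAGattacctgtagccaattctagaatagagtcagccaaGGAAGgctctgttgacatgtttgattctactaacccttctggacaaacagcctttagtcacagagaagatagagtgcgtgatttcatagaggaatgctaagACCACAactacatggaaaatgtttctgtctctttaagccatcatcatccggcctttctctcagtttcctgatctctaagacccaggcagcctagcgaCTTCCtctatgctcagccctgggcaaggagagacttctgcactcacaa
Gimap9 promoter, chr6:48675885-48676184, plus strand: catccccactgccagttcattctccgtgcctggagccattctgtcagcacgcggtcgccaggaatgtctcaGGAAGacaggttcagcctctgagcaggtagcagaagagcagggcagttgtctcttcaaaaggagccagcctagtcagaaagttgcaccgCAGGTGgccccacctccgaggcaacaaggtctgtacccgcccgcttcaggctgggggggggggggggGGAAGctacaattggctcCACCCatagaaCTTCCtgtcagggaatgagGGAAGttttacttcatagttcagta
The ETS core stood in the windows of 8 of 8 members, against 71.4% of all 32851 RefSeq mouse windows of that length. The RUNX core stood in those of Gimap1, Gimap4 and Gimap7 (16.8% of all windows). The KLF core was present for 5 members, Gimap3, Gimap4, Gimap5, Gimap8 and Gimap9 (57.5% of all windows). The FOXO core was found only for Gimap3 (3.65% of all windows), and the E protein core only for Gimap9 (20.2% of all windows). These are matches of letters, and no binding was measured.

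The sorted populations carried the defining markers of their labels, with 1 exception. Across the thymus arrays, Cd4 lay between 12.94 and 13.13, Cd8a between 12.89 and 13.23 and Cd8b1 between 13.57 and 13.84, as RMA log2 intensities. Across the spleen arrays other than ENK KO replicate 28, Cd4 lay between 6.61 and 6.92, Cd8a between 12.06 and 12.53 and Cd8b1 between 13.20 and 13.45. The library labelled spleen ENK KO replicate 28 had Cd4 at 12.20, Cd8a at 6.78 and Cd8b1 at 9.10, which goes against its CD8+ label. The library labelled spleen WT replicate 22 is given as female but had Xist at 5.90, against 12.36 to 13.37 on the other arrays given as female. En2 lay between 6.12 and 7.87 in spleen ENK KO cells and between 6.19 and 6.93 in spleen WT cells. In the thymus, En2 lay between 6.01 and 6.14 in ENK KO cells and at 6.01 on every WT array, so its signal does not check the genotype labels. Array medians lay between 7.14 and 7.25, and replicate arrays correlated at 0.994 to 0.996 between thymus arrays and 0.987 to 0.995 between spleen arrays over all probe sets. Those values are deposited log2 intensities, and the number of arrays limits the precision of every difference below.

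**Figure D1:**
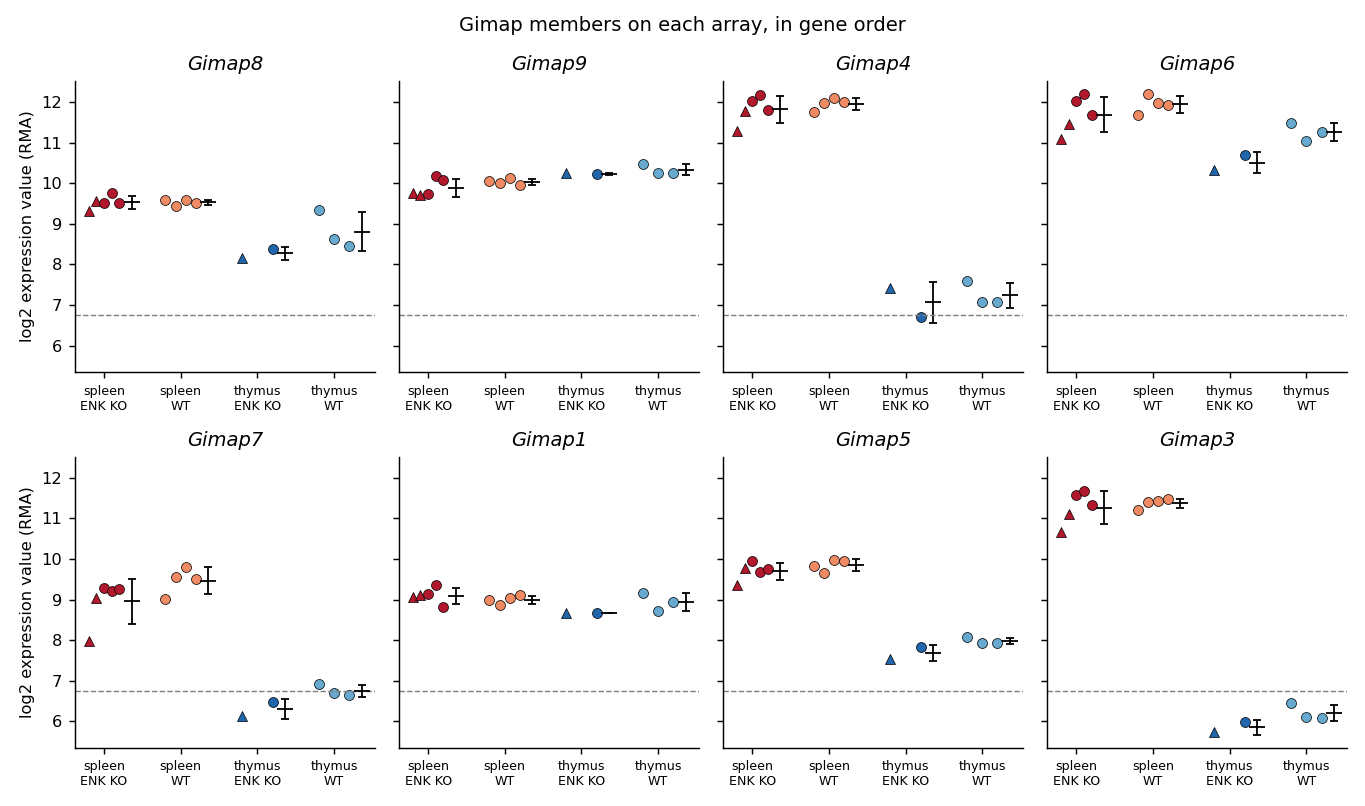
RMA log2 intensity of each Gimap gene (y axis) on each array, in 1 panel per gene in chromosomal order, with the groups spleen ENK KO (n = 5), spleen WT (n = 4), thymus ENK KO (n = 2) and thymus WT (n = 3) from left to right. Triangles are 2-month-old mice, circles older mice, black bars the mean ± SD and the dashed line the filter level of 6.76. The spleen groups stand far above the thymus groups for Gimap3 and Gimap4, while for Gimap9 the thymus groups are the higher ones.

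The family differed between the splenic CD8 cells and the double-positive thymocytes in both genotypes. In WT mice 6 of 8 members were higher in spleen, Gimap9 was lower, and Gimap1 did not pass the test. Gimap3 was 35.9-fold and Gimap4 26.2-fold higher, Gimap7 6.54-fold, Gimap5 3.65-fold, Gimap8 1.65-fold and Gimap6 1.60-fold. In ENK KO mice 7 of 8 members were higher in spleen and Gimap9 was again lower. The test was limma's moderated test in 1 fit of all 14 arrays, with Benjamini-Hochberg adjustment over the 13641 genes, and a gene was called at an adjusted p under 0.05. Most genes on the array were called in this comparison (68.6% in WT mice, of which 30.5% higher and 38.2% lower), so the count of members says little, and the sizes are what set members apart. A called difference of 2 or more log2 units toward spleen was met by 1.89% of all tested genes in WT mice. In WT mice 3 members passed it, namely Gimap3, Gimap4 and Gimap7. In ENK KO mice 1.68% of all tested genes met it, among them these members and Gimap5.

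Gimap3 and Gimap5 are close relatives that lie side by side, and both have been reported to associate with proteins of the Bcl2 family. In spleen cells Gimap3 was at 10.65, 11.09, 11.57, 11.67 and 11.34 in ENK KO replicates 3, 6, 25, 28 and 31 and at 11.22, 11.39, 11.42 and 11.46 in WT replicates 22, 34, 37 and 40. In thymocytes Gimap3 was at 5.73 and 5.97 in ENK KO replicates 1 and 29 and at 6.44, 6.10 and 6.09 in WT replicates 7, 32 and 38. No spleen array came near any thymus array, and all 5 thymus arrays lay below the filter level of 6.76. The log2 difference, spleen minus thymus, was 5.16 ± 0.20 (SE) in WT mice, with a limma adjusted p of 1.52e-10 and a 95% interval of 4.74 to 5.59. In ENK KO mice it was 5.42 ± 0.22, a 42.7-fold difference. Since the thymus signal was at the low end of the array, the spleen means were also set against the filter level, which they exceeded 22.7-fold in ENK KO mice and 24.5-fold in WT mice.

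Gimap5 was well measured in both tissues. In spleen cells it was at 9.36, 9.77, 9.94, 9.67 and 9.75 in ENK KO replicates 3, 6, 25, 28 and 31 and at 9.84, 9.65, 9.98 and 9.95 in WT replicates 22, 34, 37 and 40. In thymocytes Gimap5 was at 7.54 and 7.82 in ENK KO replicates 1 and 29 and at 8.07, 7.94 and 7.94 in WT replicates 7, 32 and 38. The tissues did not overlap in either genotype. Its log2 difference, spleen minus thymus, was 2.01 ± 0.13 in ENK KO mice (4.04-fold, limma adjusted p 3.54e-08) and 1.87 ± 0.12 in WT mice (limma adjusted p 2.33e-08). Whether the Gimap3 and Gimap5 probe sets share hybridisation was not tested, because probe sequences were not used here.

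Gimap4, reported in mice and rats to speed the death of T cells, had the second widest difference. In spleen cells it was at 11.28, 11.79, 12.02, 12.19 and 11.81 in ENK KO replicates 3, 6, 25, 28 and 31 and at 11.76, 11.98, 12.09 and 12.00 in WT replicates 22, 34, 37 and 40. In thymocytes Gimap4 was at 7.42 and 6.71 in ENK KO replicates 1 and 29 and at 7.60, 7.07 and 7.07 in WT replicates 7, 32 and 38. The thymus arrays spread over a wider range than for Gimap3, but again stayed far below every spleen array. The log2 difference was 4.75 ± 0.23 in ENK KO mice (27.0-fold, limma adjusted p 2.25e-09) and 4.71 ± 0.21 in WT mice (limma adjusted p 7.60e-10). Of the ENK KO thymus arrays, 1 of 2 lay below the filter level, and the spleen ENK KO mean exceeded that level 33.3-fold. The ENK KO fold thus rests in part on signal at the low end of the array.

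Gimap7 is a member whose GTP hydrolysis is known, in humans, to be stimulated when its molecules pair. In spleen cells it was at 7.97, 9.05, 9.27, 9.22 and 9.25 in ENK KO replicates 3, 6, 25, 28 and 31 and at 9.02, 9.55, 9.80 and 9.49 in WT replicates 22, 34, 37 and 40. In thymocytes Gimap7 was at 6.13 and 6.48 in ENK KO replicates 1 and 29 and at 6.93, 6.70 and 6.64 in WT replicates 7, 32 and 38. ENK KO replicate 3 stood apart below the other spleen arrays of its group, yet all spleen arrays were above all thymus arrays. The log2 difference was 2.65 ± 0.31 in ENK KO mice (6.26-fold, limma adjusted p 6.74e-06) and 2.71 ± 0.28 in WT mice (limma adjusted p 1.88e-06). Only 1 of the 5 thymus arrays lay above the filter level. Against that level the spleen means were 4.58-fold higher in ENK KO mice and 6.52-fold higher in WT mice.

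Gimap6 and Gimap8 were already high in thymocytes and differed less. Gimap6 binds an Atg8-family protein of autophagy, and its loss in mice lowers T cell number. In spleen cells it was at 11.10, 11.47, 12.01, 12.19 and 11.69 in ENK KO replicates 3, 6, 25, 28 and 31 and at 11.68, 12.19, 11.97 and 11.92 in WT replicates 22, 34, 37 and 40. In thymocytes Gimap6 was at 10.32 and 10.70 in ENK KO replicates 1 and 29 and at 11.48, 11.04 and 11.27 in WT replicates 7, 32 and 38. The narrowest gap between tissues was in WT mice, where the highest thymus array (11.48) lay just below the lowest spleen array (11.68). Its log2 difference was 1.18 ± 0.24 in ENK KO mice (2.27-fold, limma adjusted p 0.000881) and 0.68 ± 0.22 in WT mice (limma adjusted p 0.0153). Without thymus WT replicate 32, the WT difference was 0.57 and the call was lost (limma adjusted p 0.0678).

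Gimap8 encodes the longest GIMAP protein, with several GTP-binding domains. In spleen cells it was at 9.31, 9.55, 9.51, 9.77 and 9.53 in ENK KO replicates 3, 6, 25, 28 and 31 and at 9.58, 9.44, 9.58 and 9.53 in WT replicates 22, 34, 37 and 40. In thymocytes Gimap8 was at 8.15 and 8.39 in ENK KO replicates 1 and 29 and at 9.35, 8.62 and 8.46 in WT replicates 7, 32 and 38. Thymus WT replicate 7 (9.35) lay just below the lowest spleen WT array (9.44) and above spleen ENK KO replicate 3 (9.31). The other arrays of its group lay below every spleen array. The log2 difference was 1.26 ± 0.19 in ENK KO mice (2.40-fold, limma adjusted p 5.87e-05) and 0.73 ± 0.17 in WT mice (limma adjusted p 0.00201).

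Gimap1 and Gimap9 departed from the rest of the family. Gimap1 was at 9.07, 9.12, 9.13, 9.37 and 8.81 in spleen ENK KO replicates 3, 6, 25, 28 and 31 and at 8.99, 8.87, 9.03 and 9.10 in spleen WT replicates 22, 34, 37 and 40. In thymocytes Gimap1 was at 8.66 and 8.67 in ENK KO replicates 1 and 29 and at 9.17, 8.73 and 8.95 in WT replicates 7, 32 and 38. In WT mice the tissues overlapped, and the log2 difference was 0.049 ± 0.12, with a 95% interval of -0.21 to 0.31 and a limma adjusted p of 0.728. In ENK KO mice Gimap1 was 1.35-fold higher in spleen, a log2 difference of 0.43 ± 0.13 (limma adjusted p 0.0114). That call was lost without thymus ENK KO replicate 1 (limma adjusted p 0.0647) or replicate 29 (0.0583).

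Gimap9 was the only member lower in spleen. It was at 9.75, 9.70, 9.74, 10.17 and 10.09 in spleen ENK KO replicates 3, 6, 25, 28 and 31 and at 10.06, 9.9997, 10.12 and 9.96 in spleen WT replicates 22, 34, 37 and 40. In thymocytes Gimap9 was at 10.25 and 10.22 in ENK KO replicates 1 and 29 and at 10.48, 10.25 and 10.25 in WT replicates 7, 32 and 38. The arrays did not overlap in either genotype, but the gap was small. Its log2 difference was -0.34 ± 0.12 in ENK KO mice (limma adjusted p 0.0260) and -0.29 ± 0.11 in WT mice (limma adjusted p 0.0325). These calls did not hold in every setting: with quantile normalization the limma adjusted p was 0.0641 in ENK KO mice and 0.0944 in WT mice, and the WT call was lost without spleen WT replicate 34 (0.0631) or 40 (0.0727) or thymus WT replicate 7 (0.141). The ENK KO call was lost without spleen ENK KO replicate 3 (0.0503), 6 (0.0502) or 25 (0.0504), without thymus ENK KO replicate 1 (0.123) or 29 (0.0885), and without all 2-month-old mice (0.285).

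**Figure D2:**
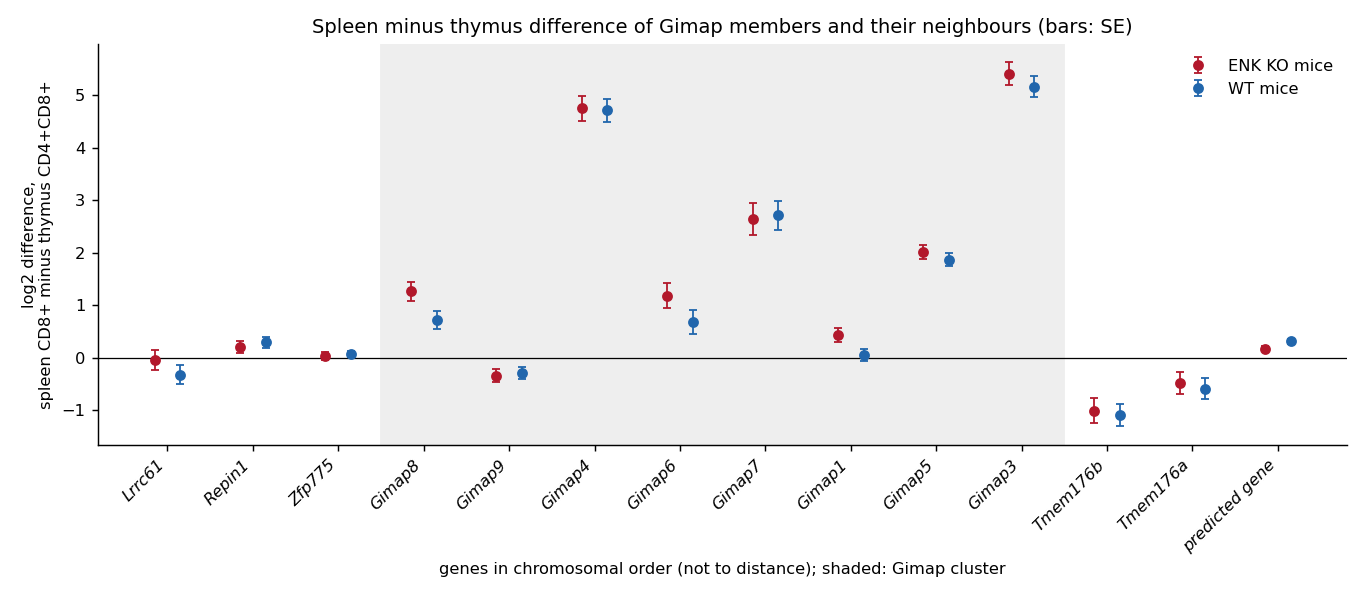
Log2 difference, spleen minus thymus, with its SE (y axis) for the 8 Gimap genes and the 6 tested neighbours, in chromosomal order along the x axis, with ENK KO mice in red to the left of WT mice in blue. Gimap3 and Gimap4 stand at 5.42 and 4.75 in ENK KO mice and 5.16 and 4.71 in WT mice, while no neighbour on either side exceeds 0.32 upward in WT mice.

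Over the 8 members the median log2 difference, spleen minus thymus, was 1.64 in ENK KO mice and 1.30 in WT mice, against -0.059 and -0.045 over all tested genes. The share of all genes called in ENK KO mice was 64.4% (27.4% higher and 37.1% lower), and 8 of 8 members were called. Of these, 7 members stood higher in spleen with no overlap (29.9% of all tested genes) and Gimap9 lower (40.7%). In WT mice 6 members stood higher without overlap (32.6% of all tested genes) and Gimap9 lower (39.2%). All 8 members passed the filter on low values, but Gimap3 and Gimap7 passed it through their spleen arrays, so that their difference was favoured by the filter. With the doubtful replicate 28 left out of the spleen ENK KO arrays, the differences were 5.31 for Gimap3, 4.66 for Gimap4, 2.58 for Gimap7, 2.02 for Gimap5, 1.20 for Gimap8, 1.06 for Gimap6, 0.36 for Gimap1 and -0.41 for Gimap9, and 8 of 8 were called. Without spleen WT replicate 22 the WT differences were 5.22 for Gimap3, 4.78 for Gimap4, 2.86 for Gimap7, 0.77 for Gimap6 and -0.30 for Gimap9, and 7 of 8 were called. In bulk samples such as these, fewer cells of a type and less RNA per cell cannot be told apart.

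The position of the genes did not order the sizes. Gimap4 (WT difference 4.71) lies between Gimap9 (-0.29) and Gimap6 (0.68), and Gimap1 (0.049) lies between Gimap7 (2.71) and Gimap5 (1.87). Of the 5 annotated genes on each side, 10 of 10 were on the array and 6 were tested. In WT mice Tmem176b, a membrane protein gene next to Gimap3, was lower in spleen by a log2 difference of -1.09 (limma adjusted p 0.000549), and Tmem176a was lower by -0.59 (0.0156). On that same side 1 predicted gene was higher by 0.32 (limma adjusted p 5.05e-05). On the other side Repin1, a zinc finger gene, was higher by 0.29 (0.0208). In ENK KO mice 1 neighbour was called higher and 1 lower. No neighbour was called between ENK KO and WT cells in either tissue.

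Other genes of the processes that GIMAP proteins are tied to moved in both directions, as did all tested genes. Of all tested genes 30.5% were called higher and 38.2% lower in WT spleen cells than in WT thymocytes. Of 13 tested Bcl2 family genes, 3 were higher and 5 lower in WT spleen cells than in WT thymocytes. Bcl2, which blocks cell death, had a log2 difference of 2.32, and its relative Bcl2l1, the survival gene of double-positive thymocytes, one of -2.85. Bmf, which promotes death, was at -1.57, and Bbc3, another such gene, at 0.50. Of 15 Atg8 family and autophagy genes, 3 were higher and 9 lower. Among them were the Atg8 relative Gabarapl1 at -1.85, the conjugation gene Atg12 at -1.12, the kinase gene Ulk1 at -1.11 and the protease gene Atg4b at -0.55. The median was -0.027 over the Bcl2 family list and -0.30 over the autophagy list, against -0.045 over all tested genes.

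Other GTPase families were set beside the Gimap genes. Of 9 tested interferon-inducible GTPase genes, 7 were higher and 0 lower in WT spleen cells than in WT thymocytes, with a median of 1.63 (30.5% of all tested genes were called higher). Gbp5, a guanylate-binding protein gene, was at 2.22, the antiviral Mx1 at 2.16, Irgm1 at 1.63 and Gbp9 at 1.12. Gbp5 and Mx1 lay at or below the filter level on every thymus array, which limits how well those sizes are measured. In ENK KO mice 6 were higher and 1 lower, where 27.4% of all tested genes were higher and 37.1% lower. Of 8 tested septin genes, which encode GTP-binding cytoskeletal proteins, 1 was higher and 4 lower in WT mice. Of all tested genes 30.5% were higher and 38.2% lower there. Septin4 was at -0.78, Septin6 at -0.33, Septin2 at -0.29 and Septin8 at 0.36.

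Genes that mark the 2 stages were read beside the family. For comparison, 30.5% of all tested genes were called higher and 38.2% lower in WT spleen cells than in WT thymocytes. Of 13 tested quiescence and egress genes of mature T cells, 8 were higher and 2 lower in WT spleen cells. Those with the smallest p were Dapl1 at 7.29, the interleukin-7 receptor gene Il7r at 6.93, the egress receptor gene S1pr1 at 5.59 and the homing receptor gene Ccr7 at 4.25. Dapl1, Il7r and S1pr1 lay at or below the filter level on every WT thymus array, so that the sizes of their differences rest on signal at the low end of the array. Of 11 tested double-positive thymocyte genes, 0 were higher and 9 lower, with the recombinase genes Rag1 at -6.64 and Rag2 at -6.46, Arpp21 at -6.50 and the terminal transferase gene Dntt at -5.82. These 4 genes lay at or below the filter level on every spleen array, and the sizes of their differences carry the same limit. Of 10 tested Notch and Runx genes, 4 were higher and 5 lower, with Runx3, a regulator of CD8 cells, at 3.72, the Notch regulator Dtx1 at 2.89, Notch2 at 1.17 and the Notch cofactor gene Rbpj at -1.07.

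Markers of other cell types were read on the same arrays. The mean log2 value of the 6 T cell markers on the array lay between 11.93 and 12.25 over all 14 arrays. The mean of the 6 B cell markers on the array lay between 7.04 and 8.06 in spleen ENK KO cells and between 7.61 and 8.03 in spleen WT cells. In thymocytes it lay between 6.79 and 6.89 in ENK KO mice and between 6.82 and 6.93 in WT mice, and Cd79a, Ms4a1, Cd22 and Blnk were at or below the filter level there. In spleen against thymus of WT mice, 3 of the 6 tested B cell markers were called higher and 0 lower. Of all tested genes 30.5% were called higher and 38.2% lower. B cells also use Gimap genes, and the part of these transcripts in the Gimap differences was not tested. The 3 natural killer cell markers lay at or below the filter level on every array. Platelet and red cell markers also differed between the tissues. Of 3 tested platelet and megakaryocyte markers 2 were higher in spleen in each genotype. The share of all tested genes called higher was 27.4% in ENK KO mice and 30.5% in WT mice. The platelet chemokine gene Ppbp was at 1.63 in ENK KO mice and 2.99 in WT mice. Ppbp was at or below the filter level on every thymus array. The 1 tested red cell marker, the haem synthesis gene Alas2, was higher too, at 1.33 in ENK KO mice and 1.98 in WT mice. Their part in the Gimap differences was not tested either.

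Between ENK KO and WT mice no Gimap gene was called in either tissue. In thymocytes 8 of 8 members had lower means in ENK KO cells, with Gimap6 at a log2 difference of -0.75 and Gimap8 at -0.54. In spleen cells 6 of 8 members had lower means and 2 higher ones in ENK KO cells. Of all tested genes, 46.97% had a difference above 0 in thymocytes and 45.01% in spleen cells. The median difference over the members was -0.14 in spleen cells and -0.33 in thymocytes. Over all tested genes the median was -0.0104 in spleen cells and -3.55e-15 in thymocytes. The widest spleen difference was that of Gimap7, at -0.51. The share of all tested genes called by limma at an adjusted p under 0.05 was 0.0147% in thymocytes and 0.00733% in spleen cells, so that the test called almost no gene of any kind. No gene of the Bcl2, autophagy, GTPase, quiescence, double-positive or Notch and Runx lists was called in either tissue. The 1 gene called in spleen was a platelet marker, Ppbp, which was lower in ENK KO cells by a log2 difference of -1.44 ± 0.17 (limma adjusted p 0.0215). The mean of the 4 platelet and megakaryocyte markers lay between 6.85 and 7.04 on spleen ENK KO arrays and between 7.20 and 7.45 on spleen WT arrays, with no overlap. That mean includes Ppbp, the only 1 of the 3 tested markers that was called, and the median difference of those 3 was -0.12. Pf4 lay at or below the filter level on every spleen array. The part of platelet transcripts in the Gimap differences was not tested.

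In thymocytes Gimap6 averaged 10.51 ± 0.26 in ENK KO mice (SD, n = 2) and 11.26 ± 0.22 in WT mice (SD, n = 3). The 2 ENK KO arrays were below all 3 WT arrays. Its log2 difference, ENK KO minus WT, was -0.75 ± 0.27 (SE), with a 95% interval of -1.33 to -0.18, an unadjusted limma p of 0.0146 and an adjusted p of 1. Gimap8 averaged 8.27 ± 0.17 in ENK KO mice and 8.81 ± 0.48 in WT mice, a difference of -0.54 ± 0.20 with an unadjusted limma p of 0.0210 and an adjusted p of 1. These were the 2 of 8 members at an unadjusted p under 0.05, where 3.53% of all tested genes were, with 1.73% of all tested genes in the lower direction. Gimap6 alone also had a fold of at least 1.5, as 0.308% of all tested genes did. The other differences were -0.45 for Gimap7, -0.36 for Gimap3, -0.30 for Gimap5, -0.28 for Gimap1, -0.18 for Gimap4 and -0.093 for Gimap9.

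For 6 of 8 members (Gimap1, Gimap3, Gimap5, Gimap6, Gimap7 and Gimap8) the 2 ENK KO thymus arrays lay below all 3 WT arrays, as did 5.21% of all tested genes. The members are not independent, since they share arrays on which they moved together. Thymus WT replicate 7, a female, had the highest value of its group for 8 of 8 members, against 36.8% of all tested genes, and its mean deviation from the group mean was 0.25. Without it the differences were -0.64 for Gimap6, -0.36 for Gimap7, -0.26 for Gimap8, -0.25 for Gimap5, -0.24 for Gimap3, -0.17 for Gimap1, -0.015 for Gimap9 and -0.0047 for Gimap4. Thymus ENK KO replicate 1, the 2-month-old female, was the lower of its pair for 6 of 8 members, against 35.3% of all tested genes. Without it, which compares 1 ENK KO array with 3 WT arrays and borrows the spread of the other groups, the difference was -0.57 for Gimap6 and -0.42 for Gimap8. With sex and age as covariates in the fit, the differences were -0.47 for Gimap6, -0.30 for Gimap8, -0.23 for Gimap1, -0.20 for Gimap7, -0.16 for Gimap5, -0.084 for Gimap4, -0.074 for Gimap3 and 0.042 for Gimap9. Most of them were thus narrower by over 1.5 times. Age entered that fit only as 2 months or older, and the ENK KO females were the 2-month-old mice. The sex term therefore rested on the WT arrays labelled female, thymus replicate 7 and spleen replicate 22. Replicate 7 was the high array named above, and the Xist signal of replicate 22 (5.90) went against its label. These values are therefore not a clean adjustment for sex and age.

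The stage of the thymocytes was read from the same arrays, beside these values. The mean of the double-positive thymocyte list lay between 12.01 and 12.10 in ENK KO thymocytes and between 12.01 and 12.03 in WT thymocytes. The mean of the quiescence and egress list was 9.43 and 9.32 in ENK KO replicates 1 and 29 and 9.37, 9.32 and 9.30 in WT replicates 7, 32 and 38. Ccr7 was at 8.71 and 8.27 in ENK KO replicates 1 and 29 and at 8.78, 8.55 and 8.32 in WT replicates 7, 32 and 38. On these lists the groups overlapped. On the Notch and Runx list and the regulatory T cell markers they did not. The Notch and Runx list averaged 9.24 and 9.30 in ENK KO replicates 1 and 29. In WT replicates 7, 32 and 38 it averaged 9.18, 9.16 and 9.21. The 4 regulatory T cell markers averaged 8.60 and 8.53 in ENK KO replicates 1 and 29 and 8.44, 8.37 and 8.33 in WT replicates 7, 32 and 38. No gene of either list was called in thymocytes, and the part of these differences in the Gimap values was not tested. On all the other gene lists and marker sets read here the groups overlapped. Among single genes, 4.04% of all tested genes were higher without overlap in ENK KO thymocytes and 5.21% lower.

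**Figure D3:**
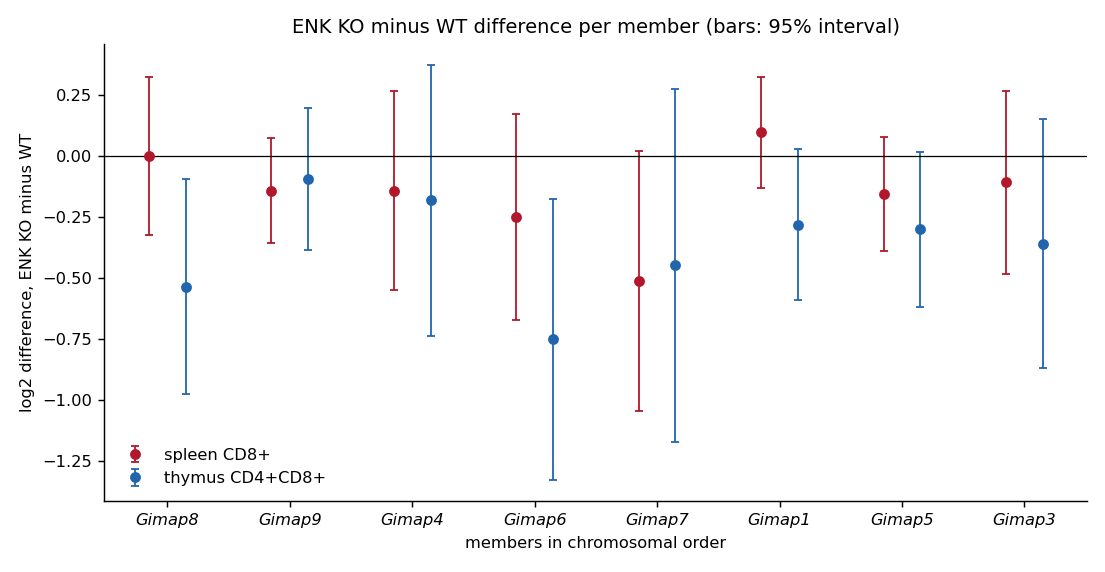
Log2 difference, ENK KO minus WT, with its 95% interval (y axis) for each Gimap gene in chromosomal order (x axis), in spleen cells in red and thymocytes in blue, with a line at 0. In thymocytes all 8 points lie below 0, and the intervals of Gimap6 and Gimap8 end below 0 before adjustment for the 13641 genes tested.

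In spleen cells Gimap7 averaged 8.95 ± 0.56 in ENK KO mice (SD, n = 5) and 9.46 ± 0.33 in WT mice (SD, n = 4). The difference was -0.51 ± 0.25 (SE), with an unadjusted limma p of 0.0581 and an adjusted p of 0.603, and the groups overlapped. The other differences, ENK KO minus WT, were -0.25 for Gimap6, -0.16 for Gimap5, -0.14 for Gimap4 and Gimap9, -0.11 for Gimap3, 0.0012 for Gimap8 and 0.098 for Gimap1. At an unadjusted p under 0.05 there were 0 of 8 members, against 8.37% of all tested genes. Without both doubtful arrays (ENK KO replicate 28 and WT replicate 22) the differences were wider, at -0.73 for Gimap7, -0.46 for Gimap6, -0.30 for Gimap4 and -0.26 for Gimap3, and no member was called (limma adjusted p 0.547 for Gimap7). Without ENK KO replicate 3 they were narrower, at -0.27 for Gimap7, -0.10 for Gimap6, -0.0072 for Gimap4 and 0.046 for Gimap3. No member's groups were free of overlap, against 0.894% of all tested genes higher and 0.814% lower in ENK KO cells.

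Within the spleen ENK KO group, age and sex ran together: replicates 3 and 6 were 2-month-old females and replicates 25, 28 and 31 were older males. For 4 of 8 members, Gimap3, Gimap4, Gimap6 and Gimap7, both younger mice lay below all 3 older ones (with or without replicate 28), as did 9.08% of all tested genes. No member was higher in both younger mice than in the older ones, against 7.15% of all tested genes. Without the 2-month-old mice the spleen differences, ENK KO minus WT, were 0.15 for Gimap3, 0.048 for Gimap4, 0.021 for Gimap6 and -0.22 for Gimap7. The signs for Gimap3, Gimap4 and Gimap6 thus turned with those mice. No WT mouse of that age was measured, so age and genotype cannot be told apart for them.

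Whether the spleen-to-thymus difference itself depended on the genotype was tested as an interaction. No member was called (limma adjusted p 0.9995 for each), while 0.00733% of all tested genes were. At an unadjusted p under 0.05 there were 0 of 8 members and 2.99% of all tested genes. The widest estimates were 0.54 log2 units for Gimap8 (unadjusted limma p 0.0535), 0.50 for Gimap6 and 0.38 for Gimap1 (unadjusted limma p 0.0521), as the spleen minus thymus difference in ENK KO mice less that in WT mice. The others were 0.25 for Gimap3, 0.14 for Gimap5, 0.041 for Gimap4, -0.049 for Gimap9 and -0.064 for Gimap7.

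Within groups, the members moved together from array to array. After each group's mean was removed, the Pearson correlation over 14 arrays was above 0 for 28 of 28 member pairs, with a median of 0.51. It was highest for Gimap3 with Gimap6 (0.94), followed by Gimap3 with Gimap7 (0.86) and Gimap6 with Gimap7 (0.80). It was lowest for Gimap5 with Gimap9 (0.10) and Gimap1 with Gimap7 (0.11). Of the member pairs 57.1% exceeded 0.5, against 8.28% of pairs of a member with any other tested gene, whose median was 0.024. Without the doubtful spleen replicates 28 (ENK KO) and 22 (WT) the median was 0.48, with 26 of 28 pairs above 0 and 42.9% above 0.5 (11.6% with other genes). Without spleen ENK KO replicate 3 the median was 0.42, with 26 of 28 pairs above 0, and the share above 0.5 was 28.6% (9.08% with other genes). Points share arrays, RNA preparations and normalization, so these values are descriptive.

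A few arrays stood out in this shared movement. Spleen ENK KO replicate 3 was the lowest of its group for 6 of 8 members, all but Gimap1 and Gimap9 (19.3% of all tested genes), with a mean deviation of -0.43. The library labelled spleen ENK KO replicate 28 was the highest for 6 of 8 members (22.9% of all tested genes), with a mean deviation of 0.29. Spleen replicate 3 had a T cell marker mean of 12.05 and a B cell marker mean of 7.40, both inside the range of its group. For replicate 28 these means were 12.06 and 7.32, but its CD4 helper marker mean was 10.86, its regulatory T cell marker mean 10.27 and its CD8 marker mean 8.14. On its group's other arrays these ran over 6.53 to 6.87, 7.31 to 7.69 and 12.33 to 12.46. The part of this different makeup in its high Gimap values was not tested.

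**Figure D4:**
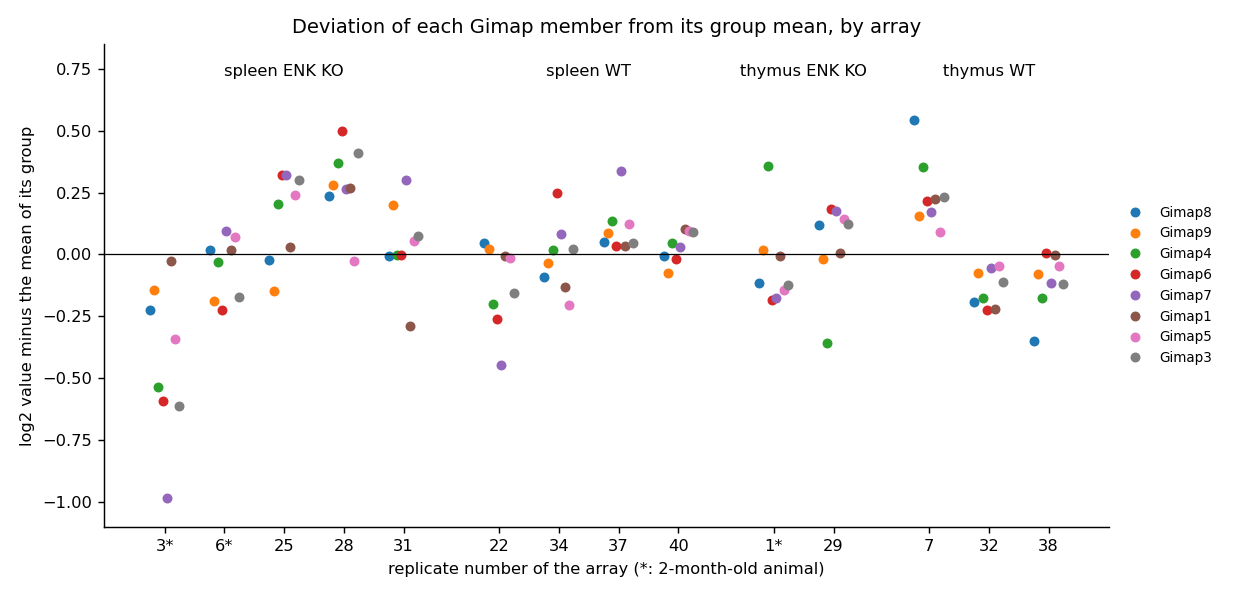
Deviation of each Gimap gene from its group mean in log2 units (y axis) on each of the 14 arrays (x axis, by group and replicate number), with 1 colour per gene and an asterisk at 2-month-old mice. Spleen ENK KO replicate 3 is below its group mean for 8 of 8 genes and thymus WT replicate 7 is above for 8 of 8.

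The genes whose values over the 14 arrays were most like the family mean were found by Pearson correlation among 12904 genes with symbols that are not predicted genes. They were Sec24d (r = 0.993), a coat protein gene of vesicle transport, Scml4 (0.990), Fam102a (0.990), Kbtbd11 (0.989) and Hs3st3b1 (0.989), a heparan sulfate sulfotransferase gene. Such values mostly record the tissue difference, since 7.94% of the genes compared exceeded 0.95. Fam102a averaged 11.42 ± 0.15 in spleen ENK KO cells and 11.44 ± 0.04 in spleen WT cells, and 8.58 ± 0.08 in ENK KO thymocytes and 8.83 ± 0.33 in WT thymocytes (SD). With group means removed, the nearest were Dalrd3 (0.904), Susd6 (0.899), the protein kinase C gene Prkca (0.899), Crmp1 (0.895) and Tecpr1 (0.891), a gene of autophagosome maturation. Of these only Dalrd3 was lower in WT spleen cells than in WT thymocytes (-0.40 in log2 units). Prkca was at 0.69, Crmp1 at 0.54, Tecpr1 at 0.20 and Susd6 at 0.18, so likeness within groups did not always go with a higher value in spleen. Crmp1 was at 6.67 on both ENK KO thymus arrays, below the filter level. With those doubtful spleen replicates left out, r lay between 0.988 and 0.994 for the first 5 genes and between 0.851 and 0.923 for the second 5. Without spleen ENK KO replicate 3, r lay between 0.989 and 0.997 for the first 5 and between 0.757 (Crmp1) and 0.885 (Prkca) for the second 5.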

How the data were processed

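The authors deposited 1 table of log2 intensities for 14 arrays, made with RMA per the submitters' processing notes, which subtracts background, quantile-normalizes and summarizes probes. RMA compresses low signals, so folds of dim genes are understated. No source used here names the array's genome build. Of 28213 probe sets, 21640 carry 1 symbol, 1321 several and 5252 none. For 21553 of those with 1 symbol the gene ID was found in the RefSeq table (GRCm38.p6), and 0 symbols changed. A gene was read by its single-symbol probe set with the highest mean. Of 19937 genes, 13641 were tested, those above 6.76 (the 40th percentile over the whole table) on 2 arrays or more. limma 3.58.1 in R 4.3.3 fitted 4 group means to all 14 arrays, with a mean-variance trend and Benjamini-Hochberg adjustment, after a test on simulated data. Sex and age were left out of the main design.

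The members and gene lists were chosen with earlier results of these data known. Named genes are the 8 members, the 5 most correlated genes by each of 2 measures, up to 4 genes per list with the smallest p between WT spleen and thymus, and neighbouring genes. Alternatives covered normalization, filters, array weights, covariates, left-out arrays and thresholds. Python 3.11.15 made the tables.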

Additional observations from a re-analysis of the deposited data

Results flagged for a closer look

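Gimap7 on spleen ENK KO replicate 3, at 7.97, stood apart from the other 4 arrays of its group, which lay between 9.05 and 9.27. The gap to the nearest array was 0.827 of the group's range, above Dixon's critical value of 0.710 for 5 arrays. It was the 1 value found among 16 combinations of a gene and a group of 4 or 5 arrays, and chance alone marks about 5% of such combinations. The mouse was a 2-month-old female.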

How the results depend on the processing

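The counts of called members between spleen and thymus were 6 to 8 of 8 in ENK KO mice and 6 to 7 of 8 in WT mice over the alternatives, and leaving out 1 array at a time gave the same ranges. Between genotypes, 0 members were called, except that Gimap6 in thymocytes gave a count of 1 where a raw p under 0.05 and a 1.5-fold difference were asked (42 of all tested genes met that). With sex and age as covariates the ENK KO minus WT difference reversed to 0.042 for Gimap9 in thymocytes and to 0.12 for Gimap3 in spleen. Without the 2-month-old mice it reversed in spleen to 0.15 for Gimap3, 0.048 for Gimap4 and 0.021 for Gimap6, and the interaction reversed to 0.055 for Gimap7 and 0.080 for Gimap9. Gimap8 in spleen was at -0.00063 with quantile normalization, -0.036 with array weights and -0.043 without the pair of doubted spleen arrays (ENK KO 28, WT 22), an alternative chosen after the data were seen, and the interaction for Gimap4 was at -0.12 under those last 2 settings. Leaving out single arrays moved Gimap1 between spleen and thymus of WT mice over -0.061 to 0.16, Gimap4 in ENK KO minus WT thymocytes over -0.54 to 0.18, and in spleen (that pair included) Gimap3 over -0.26 to 0.046 and Gimap8 over -0.058 to 0.058. The interaction ran over -0.32 to 0.40 for Gimap4 and -0.28 to 0.18 for Gimap7. None of these reversed differences was called, and the cause was not tested. No paired analysis was made, because the groups share no replicate number and the sample titles do not name the mouse of an array. Thymus replicates 1, 29, 32 and 38 matched spleen replicates 3, 31, 34 and 40, in that order, in genotype, age and sex. Whether such arrays came from the same mice is not known, and a pairing was not tested. Gimap3 and Gimap7 in thymocytes, and Gimap4 on 1 ENK KO thymus array, lay near or below the filter level, which limits how far their folds can be measured.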
